A study of Mus musculus with 6 samples.

Results

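The miRNAs described here are 10 mature miRNAs of the imprinted Dlk1-Dio3 locus on mouse chromosome 12, chosen by name from the 1966 mature miRNAs of the deposited table. They are mmu-miR-127-3p, mmu-miR-434-3p, mmu-miR-136-5p, mmu-miR-370-3p, mmu-miR-379-5p, mmu-miR-411-5p, mmu-miR-300-3p, mmu-miR-382-5p, mmu-miR-541-5p and mmu-miR-409-3p, and 105 other mature miRNAs of the table lie in the locus. They were measured by small RNA sequencing of extracellular vesicles (EVs) from 2 sources, with 3 libraries each. Colon EVs came from the medium of opened colons kept for 16 hours in medium with exosome-depleted serum, and fraction 2 of an iodixanol density gradient was sequenced. BMDC EVs came from bone marrow cultures turned into dendritic cells by 7 days of GM-CSF in complete RPMI. The labels and the methods of the study give the gradient for colon EVs alone, but its results text names it for both sources, so whether BMDC EVs also passed through one is unclear. The labels give the genotype Rab27A fl/fl to all 6 libraries and name no Cre. The comparison asks how the miRNA content of vesicles released by a whole tissue differs from that of vesicles released by dendritic cells.

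In the Dlk1-Dio3 locus, the paternal chromosome expresses the protein-coding genes Dlk1, Rtl1 and Dio3, and the maternal chromosome expresses long noncoding RNAs, snoRNAs and miRNAs. The miRNAs are thought to be cut from long transcripts that run through Meg3, Rian and Mirg. They are abundant in the embryo, the placenta and the brain and are low in most adult tissues. A miRNA recognizes its targets mainly through its seed, the bases near its 5′ end, and members that differ in the seed are expected to bind different sites.

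The 3 members antisense to Rtl1 and the members of the miR-379 to miR-410 cluster that carried most of the counts are printed here with bases 2 to 8, the seed, in capitals, because they differ there. Sequences are from RefSeq on GRCm38.p6, in which all 10 members were found, and all lie on the plus strand of chromosome 12.
mmu-miR-127-3p: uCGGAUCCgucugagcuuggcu
mmu-miR-434-3p: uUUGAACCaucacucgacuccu
mmu-miR-136-5p: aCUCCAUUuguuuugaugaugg
mmu-miR-379-5p: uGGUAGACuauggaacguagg
mmu-miR-411-5p: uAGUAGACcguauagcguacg
mmu-miR-382-5p: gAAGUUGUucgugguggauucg
mmu-miR-541-5p: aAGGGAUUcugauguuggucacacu
mmu-miR-409-3p: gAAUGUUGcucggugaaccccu
No seed was shared between members. The neighbours miR-379-5p and miR-411-5p differed at 7 of 21 positions, counted from the 5′ end of miR-379-5p, and in the seed at G2A alone.

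A further pair is shown because the sequences are close, miR-300-3p and the locus miRNA miR-381-3p, which is not a member.
mmu-miR-300-3p: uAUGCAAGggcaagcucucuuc
mmu-miR-381-3p: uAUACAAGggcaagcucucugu
They differed at 3 of 22 positions, G4A, U21G and C22U, counted from the 5′ end of miR-300-3p. Every other member had at least 7 mismatches to its nearest mature mouse miRNA of similar length in the RefSeq table. Estimated counts need not be whole, and 3 members, miR-127-3p, miR-411-5p and miR-541-5p, had a value that was not whole in at least 1 library. miR-300-3p was whole in every library, also in colon EV replicate 3, where it was 1 and miR-381-3p was 3.5.

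The hairpins fall into separate stretches of the locus. Mir127 (chr12:109592846-109592915, GRCm38), Mir434 (chr12:109594506-109594599) and Mir136 (chr12:109595327-109595388) lie opposite an exon of Rtl1, the retrotransposon-derived gene that these miRNAs match perfectly and help to silence. Mir370 (chr12:109618258-109618336) lies in an intron of Rian. The remaining 6 belong to the miR-379 to miR-410 cluster, which starts 168.1 kb after the start of Meg3. There Mir379 (chr12:109709060-109709125), Mir411 (chr12:109710175-109710256) and Mir300 (chr12:109724313-109724391) lie outside annotated genes. Mir382 (chr12:109733771-109733846) overlaps an exon of Mirg, and Mir541 (chr12:109742409-109742498) and Mir409 (chr12:109743158-109743236) lie in its introns.

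The total count was between 173358 and 645303 in colon EV libraries and between 83997 and 178454 in BMDC EV libraries. Levels are given as normalized CPM, which are counts per 1000000 of the library size after scaling by TMM, a method that assumes most miRNAs do not differ. Where the values of single libraries are given, they stand in the order of replicates 1, 2 and 3 of each source. A floor of 3 counts was 5.96 to 18.8 normalized CPM in colon EV libraries and 15.1 to 30.0 in BMDC EV libraries. Intervals and floors cover counting error only. Of the marker lists, 8 of 8 epithelial miRNAs were higher in colon EVs and 6 of 6 blood cell miRNAs were higher in BMDC EVs, which matches the labels. The sources differed widely, since 76.8% of the 220 tested miRNAs had an adjusted p under 0.05. Of the 220, 36.4% were called higher in colon EVs and 40.5% higher in BMDC EVs. Most tested miRNAs thus differed, which TMM assumes they do not. The TMM factors were 0.780 to 0.919 in colon EVs and 1.11 to 1.22 in BMDC EVs, which raises colon EV levels relative to scaling by library totals. The labels do not say whether the libraries of a source came from separate animals, so p-values measure only the spread between these libraries.

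Colon EVs carried more of the locus miRNAs than BMDC EVs, and the level was low in both. The 10 members together held 203.62, 118.33 and 64 counts in colon EVs against 8.58, 17 and 29.5 counts in BMDC EVs. These sums were 0.0316% to 0.0509% of all counts in colon EVs against 0.00677% to 0.0202% in BMDC EVs. After normalization the sum was 465 ± 107 CPM (SD, n = 3) in colon EVs against 125 ± 60.9 (SD, n = 3) in BMDC EVs, 3.72-fold higher in colon EVs by the means. Each colon EV library was above each BMDC EV library, also with scaling by library totals alone. On the log2 scale the ratio of the means was 1.90 after TMM and 1.45 with library totals alone. The lowest colon EV library had 401.9 normalized CPM with a 95% interval of 309.5 to 513, and the highest BMDC EV library had 170.2 with an interval of 99.2 to 273 (exact Clopper-Pearson intervals). No p is given for a sum over chosen members.

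**Figure D1:**
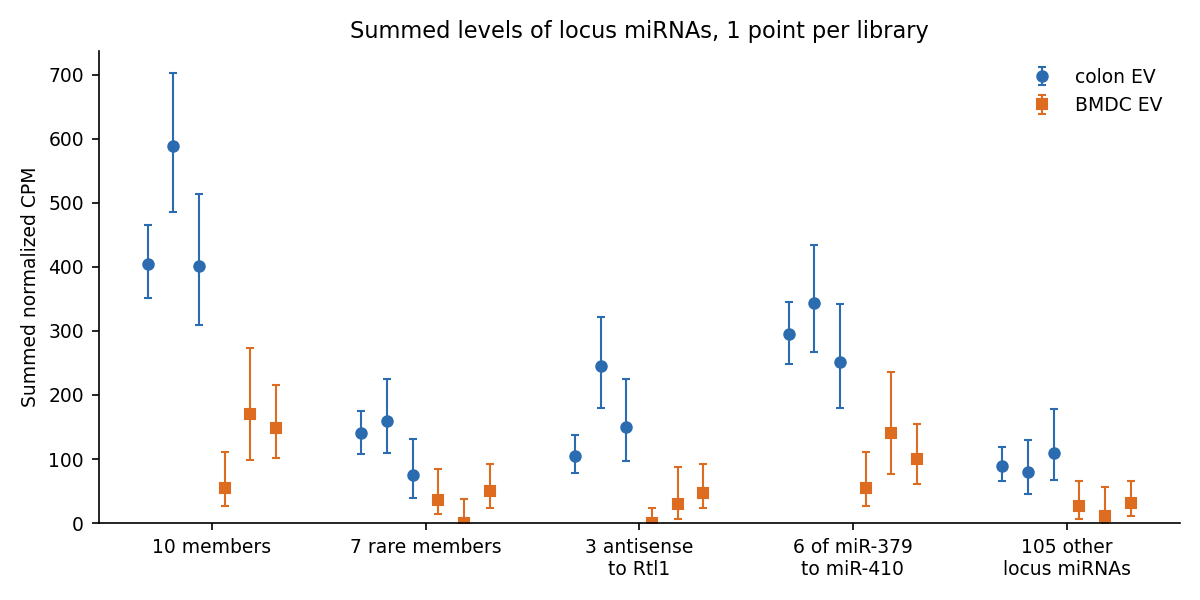
Summed level of locus miRNAs in each library, in normalized CPM, with 95% exact Clopper-Pearson intervals for counting error as bars; circles are the 3 colon EV libraries and squares the 3 BMDC EV libraries, in order of replicate number. For the 10 members, colon EV libraries lie between 401.9 and 588 and BMDC EV libraries between 55.6 and 170.2, and in each of the 5 sums shown the colon EV points lie above the BMDC EV points.

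All 10 members had counts in at least 1 colon EV library, and 5 had counts in at least 1 BMDC EV library. Across libraries, 7 members had counts in each colon EV library and 1, miR-382-5p, had counts in each BMDC EV library. The 5 members with counts in colon EVs alone were miR-434-3p, miR-541-5p, miR-136-5p, miR-300-3p and miR-370-3p. Over the whole table, 829 miRNAs had a value above 0. Of these, 238 were seen only in colon EV libraries and 135 only in BMDC EV libraries. The members were not tested against these numbers. Single libraries held 10, 7 and 9 members in colon EVs against 3, 3 and 5 in BMDC EVs. The deepest library, colon EV replicate 1, held all 10, but the order did not follow depth throughout, since colon EV replicate 3, with 173358 counts, held more members than colon EV replicate 2, with 232674. With every library thinned to 83980 counts, the median number of members with a count over 10 draws was 6, 7 and 7 in colon EVs against 3, 3 and 4.5 in BMDC EVs. The summed count of the members after thinning had medians of 29 to 45.5 in colon EV libraries and of 6 to 17 in BMDC EV libraries.

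**Figure D2:**
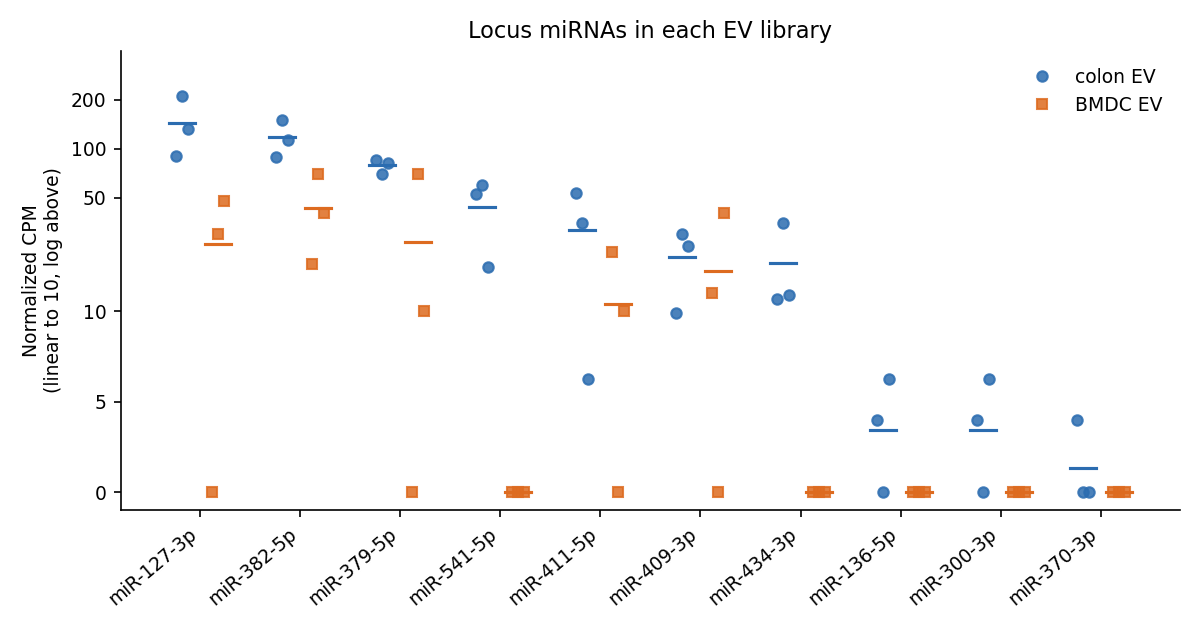
Level of each of the 10 members in each library, in normalized CPM on an axis that is linear to 10 and logarithmic above; circles are colon EV libraries, squares are BMDC EV libraries and lines are the means of 3 libraries. All colon EV points lie above all BMDC EV points for miR-127-3p, miR-382-5p, miR-541-5p and miR-434-3p, as for 39.1% of tested miRNAs. With library totals alone, miR-382-5p overlapped. In colon EV replicate 3, miR-541-5p and miR-434-3p had 3 and 2 counts, at or below the floor, so they are not shown to be apart from 0 there. The sources overlap for miR-379-5p, miR-411-5p and miR-409-3p.

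Antisense to Rtl1, mmu-miR-127-3p, which directs cleavage of the Rtl1 transcript, was the most abundant member in colon EVs by its mean. It had 45.12, 42.33 and 21 counts in colon EVs against 0, 3 and 9.5 in BMDC EVs. Each colon EV library was above each BMDC EV library, as for 39.1% of tested miRNAs, while the sources did not overlap in either direction for 81.8%. Its level was 144 ± 61.2 normalized CPM (SD, n = 3) in colon EVs, number 137 of 220 tested miRNAs by abundance, and 26.0 ± 24.2 (SD, n = 3) in BMDC EVs, with number 202 there. The log2 fold change, BMDC EVs over colon EVs, was −2.31 with a standard error of 0.67 (edgeR's quasi-likelihood test, Benjamini-Hochberg adjusted p = 0.00421).

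The call of miR-127-3p did not hold in 1 fit, without BMDC EV replicate 1, the library with 0 counts, where the log2 fold change was −1.36 (edgeR's quasi-likelihood test, adjusted p = 0.0764). With the same library left out and miRNAs kept that had 10 counts in 2 libraries instead of 3, it was −1.71 (edgeR's quasi-likelihood test, adjusted p = 0.0143). Without BMDC EV replicate 3 the change was −3.07, so this library too moved its size by over 1.5 times on the linear scale.

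The other members antisense to Rtl1 were rare. mmu-miR-434-3p, which is cut from the hairpin next to that of miR-127, had 6, 7 and 2 counts in colon EVs against 0 in each BMDC EV library. Over the BMDC EV libraries together, a count of 0 allows a level of up to 6.62 normalized CPM. With 17.4 normalized CPM over the colon EV libraries together, miR-434-3p was at 2.62 times this limit. This ratio leaves out the counting error of colon EVs and the spread between libraries, so it is not a lower bound. mmu-miR-136-5p had 2, 0 and 1 counts in colon EVs against 0 in BMDC EVs, which is at the floor, so no fold is given. Pooled, the 3 members antisense to Rtl1 held 53.12, 49.33 and 24 counts in colon EV libraries and 0, 3 and 9.5 in BMDC EV libraries. Their summed level was 167 ± 71.2 normalized CPM (SD, n = 3) and 26.0 ± 24.2 (SD, n = 3), respectively, and the BMDC EV counts were those of miR-127-3p alone.

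mmu-miR-370-3p, the member within Rian, had 2 counts in colon EV replicate 1 and 0 in the other 5 libraries. In BMDC EVs it was not detectable at this depth, and a difference could not be measured.

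In the miR-379 to miR-410 cluster, mmu-miR-382-5p, whose hairpin lies next to that of the neuronal miR-134, had the most counts. It had 45, 30 and 18 counts in colon EVs against 3, 7 and 8 in BMDC EVs. After TMM each colon EV library was above each BMDC EV library, but the sources overlapped when scaled by library totals alone, at 69.7 to 129 CPM in colon EVs and 23.7 to 83.3 in BMDC EVs. Its level was 117 ± 30.1 normalized CPM (SD, n = 3) in colon EVs against 43.3 ± 25.5 (SD, n = 3) in BMDC EVs. The log2 fold change was −1.49 with a standard error of 0.53 (edgeR's quasi-likelihood test, Benjamini-Hochberg adjusted p = 0.0174).

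For miR-382-5p the call was lost when libraries were scaled by their totals, with −1.04 (edgeR's quasi-likelihood test, adjusted p = 0.0984). It was also lost without BMDC EV replicate 1, with −0.76, and without BMDC EV replicate 3, with −1.06 (edgeR's quasi-likelihood test, adjusted p = 0.238 and 0.124). With the filter on 2 libraries it was lost without colon EV replicate 2, with −1.39, and without BMDC EV replicate 1, with −1.14 (edgeR's quasi-likelihood test, adjusted p = 0.0768 and 0.0918).

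mmu-miR-379-5p, which comes from the hairpin that opens the cluster, had 43, 14 and 13 counts in colon EVs against 0, 7 and 2 in BMDC EVs. The colon EV libraries were close to each other, at 85.4, 69.6 and 81.6 normalized CPM. BMDC EV replicate 2, at 70.1, lay above the lowest of them, and the other BMDC EV libraries lay below all 3. The means were 78.9 ± 8.28 normalized CPM (SD, n = 3) in colon EVs against 26.7 ± 37.9 (SD, n = 3) in BMDC EVs. The log2 fold change was −1.87, with a standard error of 0.74 (edgeR's quasi-likelihood test, Benjamini-Hochberg adjusted p = 0.0291).

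This call of miR-379-5p depended on the processing. It was lost with DESeq2, with −1.84 (DESeq2's Wald test, adjusted p = 0.0565), with upper quartile scaling, with −1.63, and with library totals alone, with −1.40 (edgeR's quasi-likelihood test, adjusted p = 0.0618 and 0.120). Without BMDC EV replicate 1 the change was −0.85 and without BMDC EV replicate 3 it was −0.99 (edgeR's quasi-likelihood test, adjusted p = 0.30 and 0.268), whereas without BMDC EV replicate 2 it was −3.26 and passed. With the filter on 2 libraries, leaving out any single library other than BMDC EV replicate 2 ended the call, with changes between −2.03 and −1.25, and without colon EV replicates 1, 2 and 3 these were −1.83, −2.03 and −1.94.

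**Figure D3:**
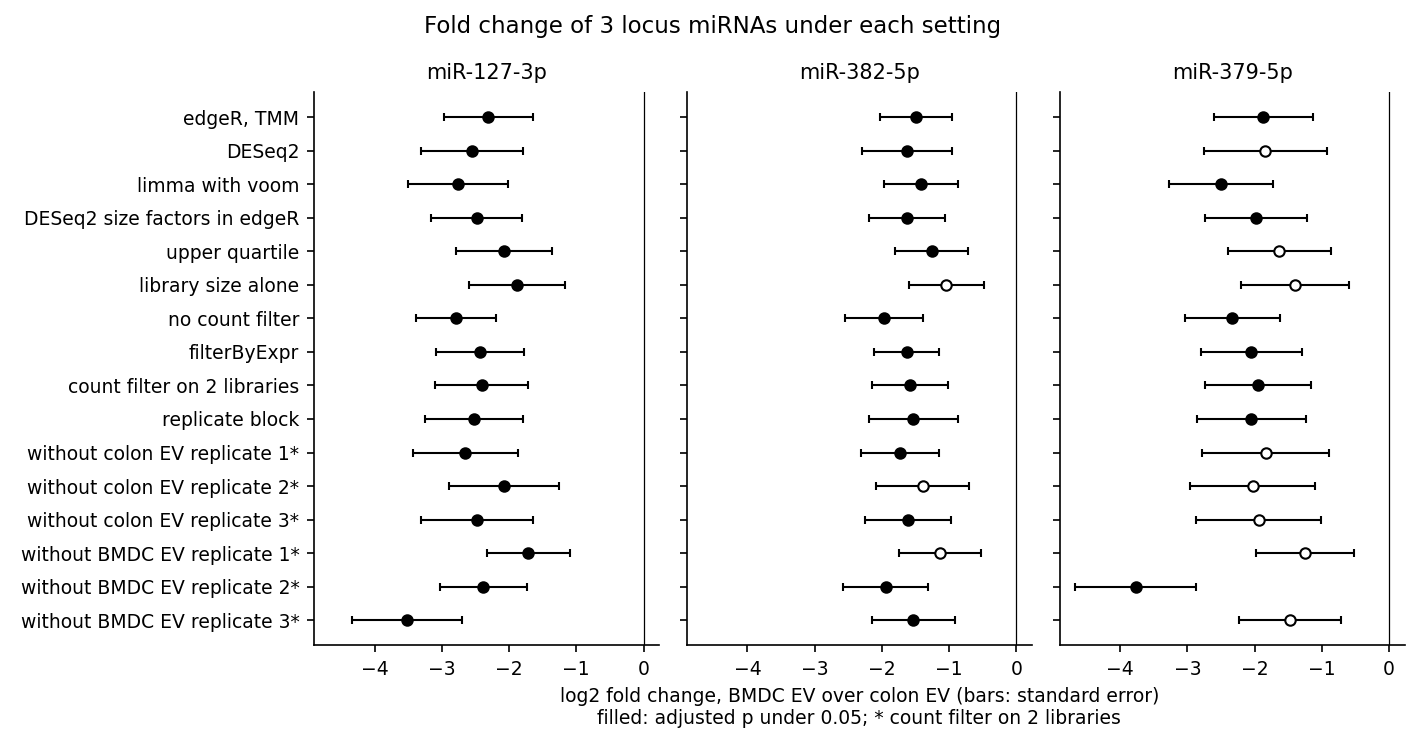
log2 fold change, BMDC EVs over colon EVs, of the 3 members that passed the count filter, under 16 settings; bars are standard errors, filled points have an adjusted p under 0.05 and an asterisk marks fits with a filter on 2 libraries. Every value shown lies below 0, and open points, where the call was lost, are found in 3 settings for miR-382-5p and in 8 for miR-379-5p and in none shown for miR-127-3p.

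These 3 were the members that passed the count filter, set at 10 counts in no fewer than 3 libraries, and they passed through their colon EV libraries, where each had at least 10 counts in all 3. In BMDC EVs, miR-127-3p reached 10 counts in 1 library after rounding and the other 2 in none. A miRNA that enters the test in this way is more likely to differ, so that 3 of 3 called, beside 76.8% of all tested, is not read as a property of the locus.

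**Figure D4:**
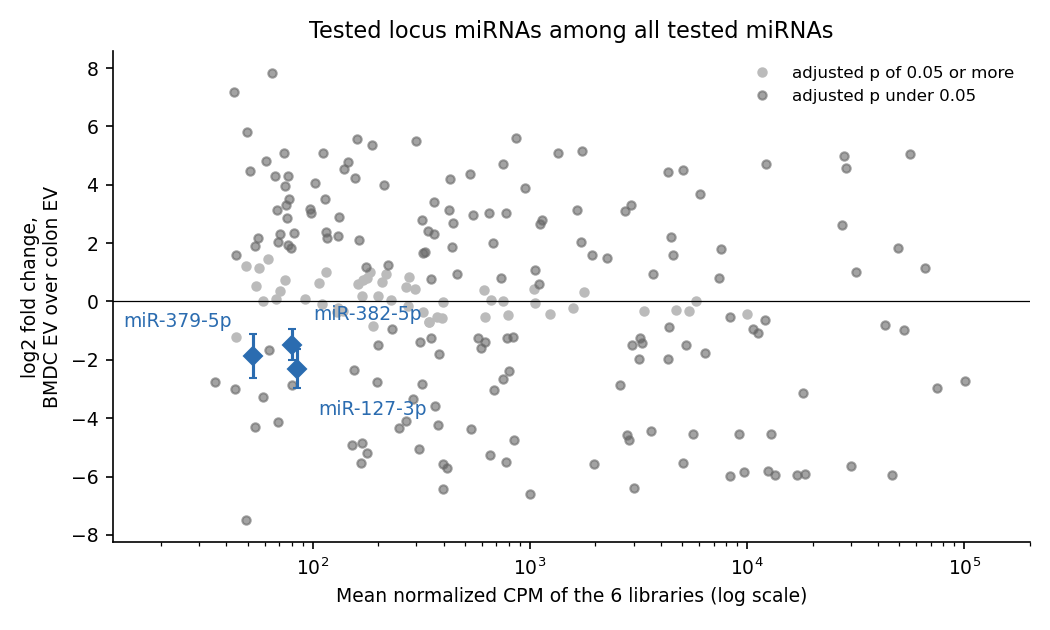
log2 fold change, BMDC EVs over colon EVs, against mean normalized CPM of the 6 libraries on a log scale for the 220 tested miRNAs; diamonds with standard errors are the 3 tested locus members. They lie at the low end of abundance, with log2 fold changes of −2.31, −1.87 and −1.49, amid miRNAs that changed by more in either direction.

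Among the rare members of the cluster, mmu-miR-541-5p, from a Mirg intron, differed by the widest margin. It had 26.5, 12 and 3 counts in colon EVs against 0 in each BMDC EV library. Its level was 43.7 ± 21.8 normalized CPM (SD, n = 3) in colon EVs. With 48.0 normalized CPM over the colon EV libraries together, it was at 7.25 times the limit of 6.62 in BMDC EVs. Here too the error of the colon EV counts is left out. At 3 counts, the lowest colon EV library was at the floor, so the difference rests mainly on colon EV replicates 1 and 2.

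mmu-miR-411-5p, from the hairpin after that of miR-379, had 27, 7 and 1 counts in colon EVs against 3.58, 0 and 2 in BMDC EVs. The sources overlapped, since colon EV replicate 3, at 6.28 normalized CPM, lay below BMDC EV replicates 1 and 3, at 23.2 and 10.1.

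mmu-miR-409-3p, also from a Mirg intron, differed least among the members with counts in both sources. It had 5, 6 and 4 counts in colon EVs against 2, 0 and 8 in BMDC EVs. Its mean was 21.6 ± 10.4 normalized CPM (SD, n = 3) in colon EVs against 17.7 ± 20.6 (SD, n = 3) in BMDC EVs, and BMDC EV replicate 3, at 40.3, was above each colon EV library. The direction was not stable, since over the libraries of a source together the level was 17.4 normalized CPM in colon EVs and 22.1 in BMDC EVs. With library totals alone the means were 18.9 CPM in colon EVs and 20.2 in BMDC EVs.

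mmu-miR-300-3p had 2, 0 and 1 counts in colon EVs against 0 in BMDC EVs, and no fold is given. Its near neighbour in sequence, miR-381-3p, had 9, 2 and 3.5 counts in colon EVs against 1, 0 and 6 in BMDC EVs, more than any other locus miRNA outside the 10.

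Pooling was used for the members too rare to test singly. The 7 members below the count filter held 70.5, 32 and 12 counts in colon EVs against 5.58, 0 and 10 in BMDC EVs. Their summed level was 125 ± 43.9 normalized CPM (SD, n = 3) in colon EVs against 28.8 ± 26.0 (SD, n = 3) in BMDC EVs, 4.33-fold higher in colon EVs by the means. Each colon EV library was above each BMDC EV library, but by counting error alone the lowest colon EV library, with an interval of 38.9 to 132, was not apart from BMDC EV replicate 3, with 24.1 to 92.6 (95% exact Clopper-Pearson intervals). On the log2 scale the ratio of the means was 2.11, and 2.79 without BMDC EV replicate 3. miR-541-5p gave 41.5 of the 114.5 colon EV counts. Without it the sums were 81.1 ± 22.1 and 28.8 ± 26.0 normalized CPM (SD, n = 3), a ratio of 2.81, and with library totals alone the sources then overlapped.

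The 6 members of the miR-379 to miR-410 cluster, pooled, had 148.5, 69 and 40 counts in colon EV libraries and 8.58, 14 and 20 in BMDC EV libraries. This gave 296 ± 45.8 normalized CPM (SD, n = 3) and 98.8 ± 42.4 (SD, n = 3), 3.00-fold higher in colon EVs, beside 6.44-fold for the members antisense to Rtl1. When single libraries were left out, the first ratio lay between 2.46 and 3.79. The second lay between 4.29 without BMDC EV replicate 1 and 11.1 without BMDC EV replicate 3, a move of 1.73 times by the latter library. The difference between the ratios was not tested. By mean level in colon EVs, miR-127-3p was followed by miR-382-5p and miR-379-5p, and the ranges of miR-127-3p and miR-382-5p overlapped, at 89.6 to 210.3 and 89.4 to 149 normalized CPM. The range of miR-379-5p, 69.6 to 85.4, lay below both and above that of miR-541-5p, which reached 59.6. With library totals alone, miR-379-5p, at 60.2 to 75.0 CPM, overlapped miR-127-3p, at 69.9 to 182, and miR-382-5p, at 69.7 to 129. In normalized CPM the ranges of miR-541-5p, miR-411-5p, miR-409-3p and miR-434-3p overlapped. The remaining 3, miR-136-5p, miR-300-3p and miR-370-3p, had at most 2 counts in any library. Of all member counts, miR-127-3p, miR-382-5p and miR-379-5p together made up 70.3% in colon EVs and a like share, 71.7%, in BMDC EVs. The make-up of the rest was less alike, since miR-409-3p was 3.89% of member counts in colon EVs against 18.2% in BMDC EVs, and miR-541-5p was 10.8% against 0%. With 55.08 member counts in BMDC EVs in all, these shares are imprecise and were not tested. Levels of different miRNAs also depend on how well the library kit captures each, which was not measured here.

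With no count filter beyond a single count after rounding, 771 miRNAs could be tested, and all 10 members among them. In that fit 5 members, miR-127-3p, miR-379-5p, miR-382-5p, miR-541-5p and miR-434-3p, were higher in colon EVs and 0 were higher in BMDC EVs, where 30.0% of the 771 were called, with 14.8% higher in colon EVs and 15.2% higher in BMDC EVs. Being at 0 in every BMDC EV library, miR-541-5p and miR-434-3p entered through colon EVs alone and could only come out higher there. Their calls are thus not read as a property of the locus. The adjusted p was 6.65e-05 for miR-541-5p, 0.0227 for miR-434-3p, 0.112 for miR-411-5p and 0.696 for miR-409-3p (edgeR's quasi-likelihood test). The median log2 fold change of the 10 members was −2.57, beside −0.11 over all 771. It includes 5 members at 0 in every BMDC EV library, whose fitted values depend on the prior count. With miR-434-3p and miR-541-5p at their ratios to the BMDC EV limit and the 3 without a fold at 0, the median was −1.65. Those ratios are not lower bounds, so this median is not one either.

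The rest of the locus was sparser. The members were chosen with earlier results of these data known, so this contrast is not read as a property of the locus. Of 105 other mature miRNAs placed in the locus, 26 had a value above 0, and 0 passed the count filter. Values above 0 were found for 21.0% of them in colon EVs and for 6.67% in BMDC EVs, where the shares were 35.8% and 31.3% for the 1851 miRNAs outside the locus. Pooled, they had 45.07, 16 and 17.5 counts in colon EVs against 4.1, 1.07 and 6.2 in BMDC EVs. The summed level was 93.0 ± 15.5 normalized CPM (SD, n = 3) in colon EVs against 22.8 ± 10.7 (SD, n = 3) in BMDC EVs, 4.07-fold higher in colon EVs by the means. After miR-381-3p, those with the most counts were miR-434-5p with 10, miR-134-5p with 7, miR-127-5p with 6 and miR-431-5p with 5 over all 6 libraries. Of these 4, BMDC EVs had 1 count, of miR-431-5p.

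**Figure D5:**
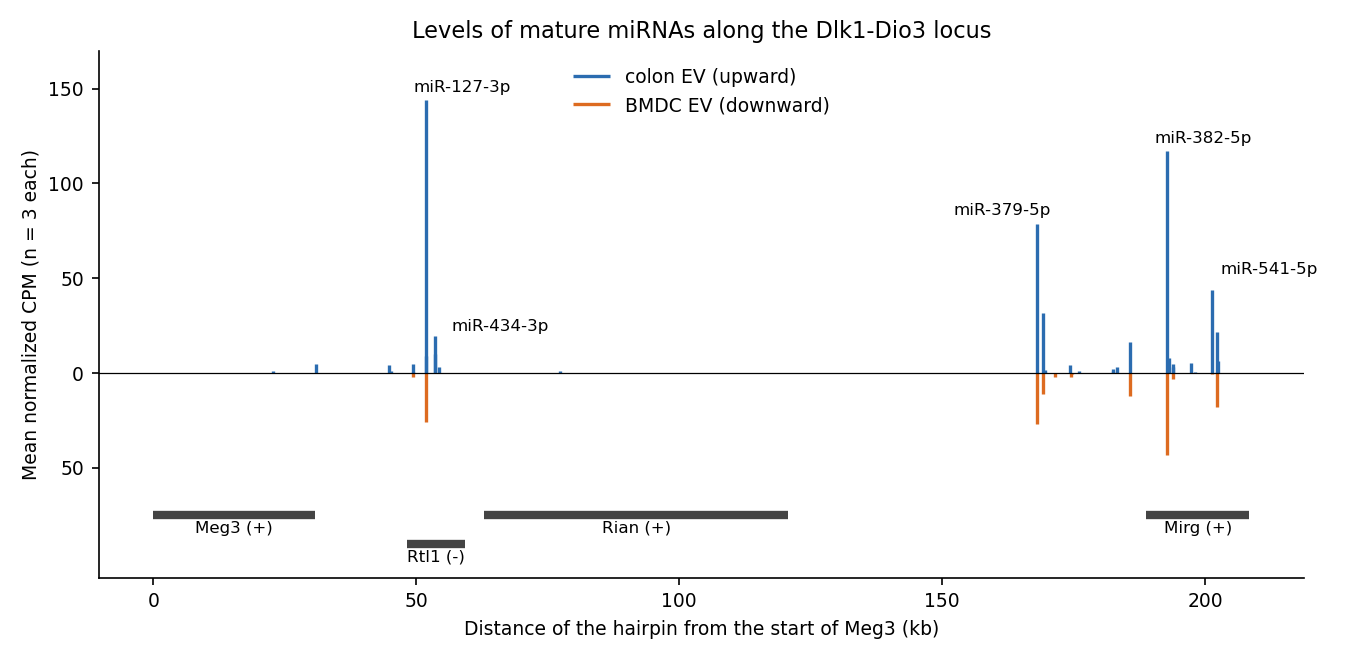
Mean normalized CPM of each mature miRNA of the locus (n = 3 libraries per source) against the distance of its hairpin from the start of Meg3 in kb, upward for colon EVs and downward for BMDC EVs; dark bars mark genes with their strand. The tall lines are miR-127-3p opposite Rtl1, at 144 in colon EVs, and miR-379-5p and miR-382-5p in the distal cluster, at 78.9 and 117.

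Other miRNAs followed the summed count of the 10 members closely over the 6 libraries. By Pearson's r of log2 normalized CPM, the 5 most alike outside the locus were miR-664-5p with 0.976, miR-672-5p with 0.975, let-7e-5p with 0.968 and miR-10b-5p and miR-199a-3p, each with 0.951. With 2 sources that differ, such values are reached by many miRNAs, and 23 of 217 had an r of at least 0.9. They describe these 6 libraries, share their depth and scaling, and carry no test. Nor do they measure the size of a change. In the order named, the log2 fold changes of the 5, BMDC EVs over colon EVs, were −1.26, −1.39, −1.43, −5.04 and −2.35. The last, miR-199a-3p, a miRNA of fibroblasts and smooth muscle, had 256 ± 97.5 normalized CPM (SD, n = 3) in colon EVs against 52.0 ± 26.0 (SD, n = 3) in BMDC EVs.

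Markers of several other cell types were also higher in colon EVs. The 8 listed miRNAs of smooth muscle and fibroblasts summed to 1470 to 2674 normalized CPM in colon EV libraries and to 70.6 to 210.3 in BMDC EV libraries, of which miR-143-3p was the most abundant. Of the 2 that could be tested, miR-143-3p and miR-199a-3p, both were higher in colon EVs. The other 6 were rare and did not all lie the same way. By their means, miR-145a-5p, miR-1a-3p, miR-199a-5p and miR-214-3p were at 54.3, 15.6, 12.1 and 0.66 normalized CPM in colon EVs against 8.35, 6.90, 0 and 0 in BMDC EVs, and the value of miR-214-3p was 1 count. By contrast, miR-133a-3p was at 0.66 against 11.7 and miR-497a-5p at 4.85 against 8.39. The 8 epithelial markers summed to 246936 to 381349 normalized CPM in colon EVs against 3361 to 6658 in BMDC EVs. The 2 vessel markers, miR-126a-3p and miR-126a-5p, summed to 785 to 1316 in colon EVs and 196 to 543 in BMDC EVs. Of the 4 neuronal markers, miR-124-3p was at 0 in colon EVs and miR-218-5p at 0 in BMDC EVs, and their sum, most of it miR-128-3p, was 191 to 315 in colon EVs against 285 to 446 in BMDC EVs. The 2 red cell markers summed to at most 56.5 in any library, and miR-144-3p was at 0 in BMDC EVs. The part of these cell types in the level of the locus miRNAs was not tested. In mixed EVs, fewer vesicles of a kind and fewer miRNA copies per vesicle cannot be told apart, and neither can the source of the EVs and the differences in handling, namely the culture medium and the gradient, if BMDC EVs had none.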

How the data were processed

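Small RNA libraries of 3 colon EV and 3 BMDC EV preparations were grouped by their sample titles, and 0 columns of the table were left without a sample. The table deposited by the authors holds estimated counts for each mature miRNA, without normalization and not always whole. The submitters' processing notes name GRCm38, mm10, STAR 2.7.6a, featureCounts 1.6.3 and DESeq2 1.30.1. The role of each, the miRNA annotation and the use of molecular identifiers are not given in the sources used here. If reads rather than molecules were counted, amplification adds to the error.

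The members and lists were chosen with earlier results of these data known. Counts were rounded and tested with edgeR 4.0.16 in R 4.3.3 (quasi-likelihood, TMM, no block) over the 220 miRNAs that reached 10 counts in no fewer than 3 libraries, with Benjamini-Hochberg adjustment over all of them. The standard error is the log2 fold change divided by the square root of F. Library totals were 83997 to 645303. Libraries of a source differed by more than counting error (chi-square per degree of freedom of at least 6.28), so none was counted as a duplicate.

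Named were the 10 members, the other locus miRNAs with the most counts and the 5 miRNAs most alike in level (prior count 2). The other locus miRNAs were listed by name, and 1 without a place within 0.3 Mb of the members was dropped and 3 were added by place. Hairpins and genes are from GENCODE vM21 (GRCm38), and sequences from RefSeq (GRCm38.p6), in which 101 of the 105 others were found. Intervals are exact Clopper-Pearson intervals at 95% (scipy 1.17.1). Fits were tested on simulated data. DESeq2 1.42.0, limma 3.58.1 with voom, other scalings and filters, a replicate block and leaving out each library were tried as alternatives. Counts that were not rounded, a filter on 2 libraries of the same source, leaving out libraries with a filter on 2 libraries, and leaving out libraries for sums by place were added after the data were seen. Figures were drawn with matplotlib 3.10.9.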

Additional observations from a re-analysis of the deposited data

How the results depend on the processing

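Of the 10 members, 3 were called, all higher in colon EVs. The number was 1 when libraries were scaled by their totals, 1 at an adjusted p under 0.01 and 5 with no count filter, and it stayed within 1.5 times of 3 in the other 10 settings that kept all libraries. It was 0 to 3 with each library left out. Each time a colon EV library was left out, miR-379-5p and miR-382-5p no longer had 10 counts in 3 libraries and could not be tested. With a filter on 2 libraries, added after the data were seen, it was 1 to 4. No alternative called a member higher in BMDC EVs, though members at 0 in each BMDC EV library could not have been. In fits with a count filter, the members tested had passed mainly through colon EV libraries, which made such a call unlikely. The shared direction is therefore not read as a property of the locus. None of the alternatives turned the direction of miR-127-3p, miR-379-5p or miR-382-5p, whose log2 fold changes lay between −3.51 and −1.36, −3.77 and −0.85, and −1.97 and −0.76. Scaling by library totals raised the median log2 fold change of all tested miRNAs by 0.45, so these changes are relative to the scaling. The 105 other locus miRNAs had 0 calls in edgeR, limma and DESeq2. None of them passed the count filter, and of the 24 that edgeR tested with no filter, 1, miR-434-5p, had an unadjusted p under 0.05. The log2 ratio of the summed members stayed between 1.45 and 2.19, and that of the rare members between 1.49 and 2.79.

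At least 10 counts in all 3 libraries of the source were found for 3 members in colon EVs and 0 in BMDC EVs. With a minimum of 3 counts these were 5 and 1, and after thinning to 83980 counts the median in colon EVs was 0, because fewer reads were left. Depth limits the rare members most, since 3 counts were up to 30.0 normalized CPM in a BMDC EV library.

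With the replicate number as a block, 3 members were called, and 164 of the 220 miRNAs in place of 169. Libraries with the same number did not deviate together (correlations of −0.145 to −0.0596 for 3 pairs, and 0 of 6 libraries correlated best with its own number), so the number is not taken as a pairing.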

Other observations

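Both arms of the members' hairpins can be read from the table, summed over the libraries of a source. Mir127 gave 108.45 counts of the 3p arm and 6 of the 5p arm in colon EVs, and 12.5 and 0 in BMDC EVs. Mir434 was more even, with 15 counts of the 3p arm and 10 of the 5p arm in colon EVs, and 0 of either in BMDC EVs. Mir409 gave 15 counts of its 3p arm and 1.07 of its 5p arm in colon EVs. For Mir379, Mir382, Mir411, Mir300, Mir370 and Mir136 the arm that is not a member was at 0 in all 6 libraries. Mir541 gave 41.5 counts of its 5p arm in colon EVs alone, whereas its 3p arm was listed at 0.17 in BMDC EVs and at 0 in colon EVs.

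Outside the locus, 793 miRNAs had a value above 0. Of these, 214 were seen only in colon EV libraries and 131 only in BMDC EV libraries. The locus was not tested against these numbers. Of the 26 other locus miRNAs with a value above 0, 19 were seen in colon EV libraries alone, whereas 4 were seen in BMDC EV libraries alone. The latter were miR-323-3p and miR-679-5p, with 1 count each in BMDC EV replicate 1, and miR-1193-3p and miR-541-3p, with less than 1 estimated count. These were chosen after their values were seen, and differences between the sources at such counts were not detectable at this depth.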
